A study of Mus musculus with 2 samples.

Results

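The replication-dependent histone genes of the mouse were examined in naive resting CD8 T cells, which are cytotoxic T cell precursors that circulate outside the cell cycle. Members were chosen by symbol: all protein-coding genes in GENCODE M21 (mm10) that start with Hist1h, Hist2h, Hist3h or Hist4h, which gave 67 of 21827 protein-coding genes. They comprised 6 genes for the linker histone H1, 18 for H2A, 18 for H2B, 12 for H3 and 13 for H4. Promoter windows reached 500 bp to each side of an annotated transcription start, and overlapping windows were joined, so that the 67 genes made up 54 promoter regions. Open chromatin was measured by DNase-seq, which sequences the ends that DNase I leaves where it cuts exposed DNA in nuclei. There were 2 libraries of 1 group, made from primary cells of B6CASTF1/J males (the cross of a C57BL/6 and a CAST strain) that were adult, at 2 months of age, and no treatment is named in the labels. They are called replicate 2 and replicate 3, after their labels. The labels give both the same donor and different biosamples and do not say if separate animals were used.

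Replication-dependent histones package newly copied DNA, and their genes are transcribed mainly during S phase, from promoters gathered with the coactivator NPAT in the histone locus body. Their transcripts end in a conserved stem-loop in place of a poly(A) tail, and the stem-loop binding protein SLBP carries them through processing and translation. H2A, H2B, H3 and H4 form the nucleosome core, H1 binds the linker DNA between nucleosomes, and H2A and H2B genes often lie head to head and share a promoter.

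The promoters of each histone type carry known sequence elements, and those that matter for the results are shown here from the GRCm38 reference, whose chromosome lengths match mm10. Since the mice were a cross, an allele in these cells may differ from the reference. In all, 7 motifs were searched on both strands in the 250 bases before each start, and a match describes the letters, not a bound site. For H4 the element is site II, which the factor HINFP is known to bind. Its core GGTCCG was present upstream of 12 of the 13 H4 genes (92.3%), always on the gene strand, against 8.01% of all protein-coding genes. The stretches below are shown because open chromatin and footprints differed between them. Capitals mark the core, and each reads 5′ to 3′ on the gene strand.
Hist1h4c (chr13:23698487-23698526, minus strand): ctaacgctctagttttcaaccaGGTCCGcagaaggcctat
Hist2h4 (chr3:96263362-96263401, minus strand): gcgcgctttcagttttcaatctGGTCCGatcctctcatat
Hist4h4 (chr6:136804446-136804485, minus strand): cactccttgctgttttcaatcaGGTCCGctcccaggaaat
Hist1h4d (chr13:23581499-23581538, plus strand): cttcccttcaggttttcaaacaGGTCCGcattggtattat
Hist1h4b (chr13:23756921-23756960, plus strand): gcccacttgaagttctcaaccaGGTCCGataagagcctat
Hist1h4h (chr13:23531017-23531056, plus strand): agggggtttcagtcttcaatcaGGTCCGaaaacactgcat
Hist1h4f (chr13:23551697-23551736, minus strand): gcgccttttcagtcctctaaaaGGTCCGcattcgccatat
Hist1h4j (chr13:21734994-21735033, plus strand): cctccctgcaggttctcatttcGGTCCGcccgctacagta
Hist1h4m (chr13:21811677-21811716, plus strand): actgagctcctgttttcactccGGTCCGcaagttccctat

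The core began between 80 and 11 bases before the annotated start in these 12 genes. Hist1h4n carried the same 40 bases as Hist1h4m. The H4 gene without the core was Hist1h4a, which instead held 4 copies of TTTCCCGC, a sequence that E2F cell cycle factors are known to bind. No other member held that sequence in the 250 bases, against 1.12% of all genes. The copies, in capitals, lie within the following stretch upstream of the annotated start.
Hist1h4a (chr13:23761301-23761455, minus strand): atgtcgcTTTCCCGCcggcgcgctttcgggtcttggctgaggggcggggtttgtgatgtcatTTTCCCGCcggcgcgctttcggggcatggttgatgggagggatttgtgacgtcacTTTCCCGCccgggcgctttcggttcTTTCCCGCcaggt

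H1 promoters are known for the H1 box AAACACA far from the start, a CCAAT box nearer to it and a TATA box close to it. The H1 box was present in 4 of 6 H1 genes (66.7%), against 5.60% of all genes, and began between 117 and 113 bases before the start in all 4. With the search set before start codons, chosen after seeing the data, the H1 box was in 5 of 6 H1 genes, against 6.51% of all genes. The promoters of 4 H1 genes are shown, each from 130 to 11 bases before the start. Capitals mark the H1 box, the CCAAT box on either strand and the TATA box, searched as TATAAA. Hist1h1c and Hist1h1e are shown as the H1 genes open in both libraries, Hist1h1a lacks the H1 box before its annotated start, and the testis gene Hist1h1t had no peak.
Hist1h1c (chr13:23738678-23738797, plus strand): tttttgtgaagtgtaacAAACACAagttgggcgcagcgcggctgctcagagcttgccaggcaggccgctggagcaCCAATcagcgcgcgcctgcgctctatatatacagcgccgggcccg
Hist1h1e (chr13:23622569-23622688, minus strand): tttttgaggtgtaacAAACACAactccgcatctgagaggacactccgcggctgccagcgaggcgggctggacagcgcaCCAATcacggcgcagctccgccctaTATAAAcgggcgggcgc
Hist1h1a (chr13:23763536-23763655, plus strand): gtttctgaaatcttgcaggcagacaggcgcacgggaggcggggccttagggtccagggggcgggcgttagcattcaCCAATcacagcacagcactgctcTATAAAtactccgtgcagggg
Hist1h1t (chr13:23695684-23695803, plus strand): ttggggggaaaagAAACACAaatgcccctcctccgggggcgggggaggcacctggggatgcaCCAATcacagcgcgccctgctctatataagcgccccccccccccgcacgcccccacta

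H2A and H2B promoters are known for CCAAT boxes and, in H2B, for the octamer ATTTGCAT, which POU2F1 (Oct-1) binds. All 18 H2A and all 18 H2B genes held CCAAT within 250 bases, against 36% of all genes, and 7 H2A and 8 H2B genes held the octamer, against 1.44%. Both motifs are counted for each gene of a shared promoter. The intervals between the starts of a pair with the octamer and of a pair without it are shown, on the strand of the H2B gene. Capitals mark CCAAT or ATTGG, ATTTGCAT, and TATAAA or TTTATA.
Hist1h2ac-Hist1h2bc (chr13:23683949-23684198, plus strand): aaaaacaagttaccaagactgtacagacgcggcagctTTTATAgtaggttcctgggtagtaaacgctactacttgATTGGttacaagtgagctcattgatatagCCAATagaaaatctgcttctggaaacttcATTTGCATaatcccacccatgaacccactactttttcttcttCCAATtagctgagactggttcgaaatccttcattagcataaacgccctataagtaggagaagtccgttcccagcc
Hist1h2ag-Hist1h2bj (chr13:22042945-22043213, plus strand): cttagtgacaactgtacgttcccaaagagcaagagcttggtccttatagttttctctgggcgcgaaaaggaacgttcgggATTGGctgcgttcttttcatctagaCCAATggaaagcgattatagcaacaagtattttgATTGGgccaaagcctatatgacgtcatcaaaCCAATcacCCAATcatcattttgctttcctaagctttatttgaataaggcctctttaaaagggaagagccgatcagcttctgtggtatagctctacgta

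Before annotated starts, CCAAT was also present in 5 of 6 H1 and 9 of 12 H3 genes, and in 4 of 13 H4 genes. With the search set before start codons, chosen after seeing the data, CCAAT was in 6 of 6 H1 and 12 of 12 H3 genes. The H4 count stayed at 4 of 13 there, and the share of all genes was 28.2%. The counts that follow are again before annotated starts. TATAAA was present in 34 of the 67 members (50.7%), against 11.4% of all genes. A match in a shared promoter could again count for both genes. With the search cut to 150 bases, TATAAA was in 27 members (40.3%), against 7.11% of all genes. The H2B genes with it then fell from 10 to 4 of 18. In the 250 bases, the E-box CACGTG, which MYC and related factors are known to bind, was in 0 of 67 members and 6.59% of all genes. GGTCCG outside the H4 genes was found at Hist1h2bh and Hist1h3i. Promoter windows of members were rich in CpG: the median ratio of observed to expected CpG was 0.879, against 0.571 over all genes.

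The stem-loop was searched for in the members only, so no share over all genes stands beside its count. The pattern was also widened to further loop letters after the data were seen. The count therefore describes the members and is not a check of the label replication-dependent. Within 150 bases after the stop codon, 65 of 67 members held a 16-base histone stem-loop, between 22 and 59 bases from the stop. The commonest form was in 41 members, the next in 9 and the third in 8, with the paired stem in capitals.
Form in 41 members: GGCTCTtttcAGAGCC
Form in 9 members: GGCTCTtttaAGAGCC
Form in 8 members: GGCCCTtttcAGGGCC

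None was found for the annotated transcripts of Hist1h2an and Hist2h2be. The germline genes Hist1h1t, Hist1h2aa and Hist1h2ba, which are known from testis, each held one of these forms.

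The lists of the libraries differed in size. The deposited peaks come as a stricter list for each library (38223 peaks in replicate 2 and 17061 in replicate 3) and a permissive list (53597 and 24844). The deposited footprints, short stretches protected from cutting within open chromatin, numbered 146244 and 29967. The signal printed for a peak is the authors' own value, in a unit the labels do not state; if it is scaled to tags per 1e+06, replicate 2 was 6.05 times as deep as replicate 3. A gene's promoter signal is the value of the strongest peak touching its window, and its percentile is the rank of that value among the genes with a promoter peak in the same library. Of 7 genes that mark naive CD8 T cells, 6 had a stricter promoter peak in replicate 2 but 1 (Cd8b1) in replicate 3, Cd8a had none in either, and 3 B cell and 3 myeloid genes had none. All 3 genes of dividing cells that were checked had a peak in both libraries (Mki67 2.57 and 2.89, Top2a 8.68 and 7.14, Ccnb1 2.75 and 2.44). With 1 group of 2 libraries there is no comparison between conditions and no test, and the values below describe these 2 libraries.

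Most histone promoters were open in replicate 2, at low signal, and few were called in replicate 3. In replicate 2, 51 of 67 members (76.1%) had a stricter promoter peak, against 49.3% of all protein-coding genes. In replicate 3 the count was 13 of 67 (19.4%), against 39.9% of all genes. The same 13 members had a peak in both libraries (19.4%), against 39.8% of all genes, and 16 members had none in either. Counted by region, 41 of 54 regions had a peak in replicate 2 and 12 in replicate 3, all 12 being open in both. The members thus stood above the share of all genes in replicate 2 and below it in replicate 3. The naive CD8 T cell markers, at 6 and 1 of 7, differed between the libraries in the same direction, and the part of depth in the difference was not tested. With only the 17061 strongest peaks of replicate 2, as many as replicate 3 had, 36 of 67 members kept a promoter peak there, against 40.3% of all genes. The members still stood above the share of all genes in replicate 2, but by less than with the full list.

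The permissive lists narrowed the gap. By those lists 56 members (83.6%) had a promoter peak in replicate 2, against 52.9% of all genes, and 28 (41.8%) in replicate 3, against 44.4%. The 28 were also the members with a permissive peak in both libraries (44.3% of all genes), and 11 members had no peak in any list.

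The signal of open histone promoters was low for a promoter. The median over members with a stricter peak was 2.01 in replicate 2, against 3.76 over all genes with a promoter peak, and 8 of 51 members lay above that all-gene median. In replicate 3 the members' median was 3.66, against 4.65, and 4 of 13 lay above it. The members' median percentile was 26.6 in replicate 2 and 34.5 in replicate 3. Where a member had a stricter peak in both libraries, its values were close: the ratio of replicate 3 to replicate 2 ran from 0.812 to 1.41, with a median of 1.01, against 1.03 over all genes. The strongest peaks of the 2 libraries overlapped in 12 of these 13 members, whose median ratio was 1.00. At Hist1h1e they were different peaks. The strongest peak covered the annotated start in 34 of 51 members in replicate 2, and its midpoint lay before the start in 40.

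**Figure D1:**
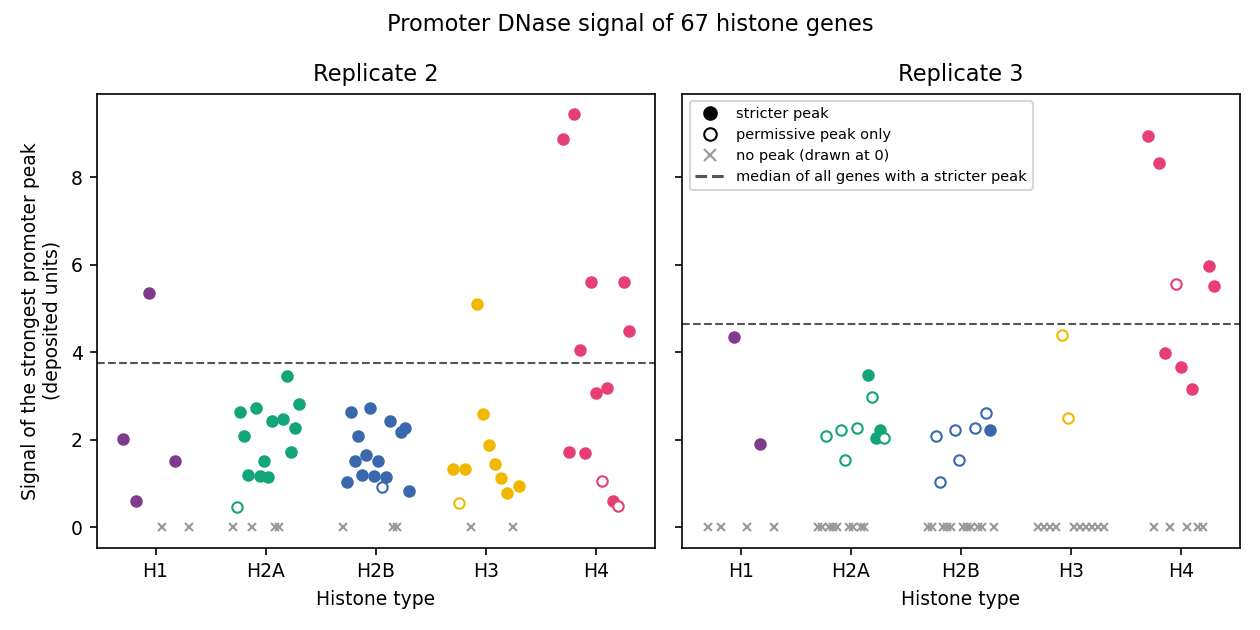
Signal of the strongest promoter peak of each of the 67 members (y axis, deposited units) by histone type (x axis) in replicate 2 (left) and replicate 3 (right). Filled points are stricter peaks, open points are members with a permissive peak only, crosses drawn at 0 are members with no peak, and the dashed line is the median of all genes with a stricter promoter peak (3.76 and 4.65). In replicate 2, 8 of 51 filled points lie above the line, and 6 of these are H4 genes.

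**Figure D2:**
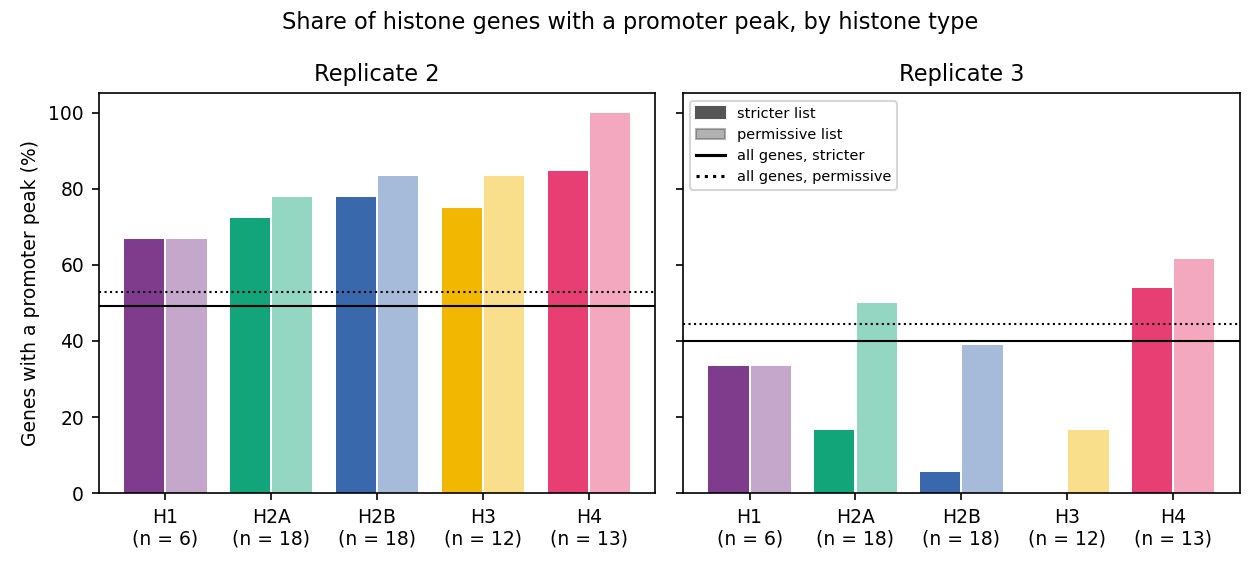
Share of the members of each histone type with a promoter peak (y axis, %) in replicate 2 (left) and replicate 3 (right), by the stricter list (dark bars) and the permissive list (pale bars). Lines give the share over all protein-coding genes: 49.3% and 52.9% in replicate 2, and 39.9% and 44.4% in replicate 3. In replicate 3, H4 lies above the line for the stricter list (53.8%), and H3 has no stricter peak.

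The H4 genes had the strongest and the most often shared open promoters. H4 is the core histone whose genes all encode nearly the same protein. In replicate 2, 11 of 13 H4 genes had a stricter peak, with a median signal of 4.06 and a median percentile of 53.7. In replicate 3, 7 of 13 had one, with a median signal of 5.51 and a median percentile of 61.5. These 7 make up more of the 13 members open in both libraries than any other type: H2A had 3, H1 had 2, H2B had 1 and H3 had 0. The types also differed in how much of their promoter sequence occurs again in the genome, as given below.

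Hist1h4c and Hist1h4a were the strongest members in both libraries. Hist1h4c had a signal of 9.44 in replicate 2 (percentile 92.4) and 8.31 in replicate 3 (percentile 88.4), with 8 and 2 footprints in its promoter. Hist1h4a, the gene with the E2F matches, had 8.86 (percentile 90.4) and 8.94 (percentile 91.6), with 10 and 5 footprints. These were the only members above a percentile of 70 in either library. Hist2h4, in the cluster on chromosome 3, followed with 5.61 (percentile 69.4) and 5.96 (percentile 67), and 10 and 2 footprints. Hist4h4, the lone member on chromosome 6, had 4.48 (percentile 58.7) and 5.51 (percentile 61.5), with 5 and 3 footprints. Hist1h4d had 4.06 and 3.97. The lowest of the H4 genes open in both were Hist1h4i, with 3.06 (percentile 41.5) and 3.66 (percentile 34.5) and 8 and 2 footprints, and Hist1h4k, with 3.18 (percentile 43.2) and 3.16 (percentile 26.6) and 3 and 1 footprints.

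Further H4 genes, 4 in all, had a stricter peak in replicate 2 only. Hist1h4h was as strong as Hist2h4, with 5.60 in replicate 2 (percentile 69.3, 9 footprints), and in replicate 3 it had only a permissive peak, of 5.56, with 1 footprint. Hist1h4b had 1.72 (percentile 22.4) and Hist1h4f 1.69 (percentile 22), each with 3 footprints in replicate 2 and none in replicate 3. Hist1h4m had 0.604 (percentile 3.45) and no footprint. Hist1h4j and Hist1h4n had permissive peaks in replicate 2 only, at 1.04 and 0.477, so every H4 gene had a peak in at least the permissive list of replicate 2.

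Footprints touched the site II core in 7 of the 10 H4 promoters that were open in replicate 2 and have it, and in 3 of 6 in replicate 3. In replicate 2, a footprint overlapped the GGTCCG core by 1 base or more in 7 of the 12 genes that have it: Hist1h4b, Hist1h4c, Hist1h4d, Hist1h4i, Hist1h4k, Hist2h4 and Hist4h4. In replicate 3 this held for 3 of them, Hist1h4d, Hist2h4 and Hist4h4. In replicate 2 all 6 bases of the core were covered in 4 genes, while 2 were covered at Hist1h4d and 1 each at Hist1h4b and Hist2h4. In replicate 3 all 6 were covered at Hist1h4d and Hist4h4, and 5 at Hist2h4. The footprint touching the core was 29 bp wide at Hist1h4c (chr13:23698478-23698506) and 9 bp wide at Hist2h4 (chr3:96263366-96263374) in replicate 2. At Hist1h4d it covered 24 bp in replicate 2 (chr13:23581525-23581548) and 21 bp in replicate 3 (chr13:23581521-23581541). Over all distinct GGTCCG matches before members, 8 of 14 (57.1%) were footprinted in replicate 2 and 3 of 14 (21.4%) in replicate 3, against 18% and 5.90% of the matches before all protein-coding genes, closed promoters included. Hist1h4h, Hist1h4f and Hist1h4m, open in replicate 2, had no footprint over the core, and Hist1h4m had none in its whole window. At Hist1h4a, a footprint overlapped 3 of its 4 E2F matches in replicate 2 and 1 of them, at position -108 from the start, also in replicate 3. In replicate 2 the matches beginning at -108 and -218 were covered whole. The match beginning at -163 was touched only at its last base, by a footprint from -156 to -146. In replicate 3 a footprint from -106 to -85 covered part of the match at -108.

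**Figure D3:**
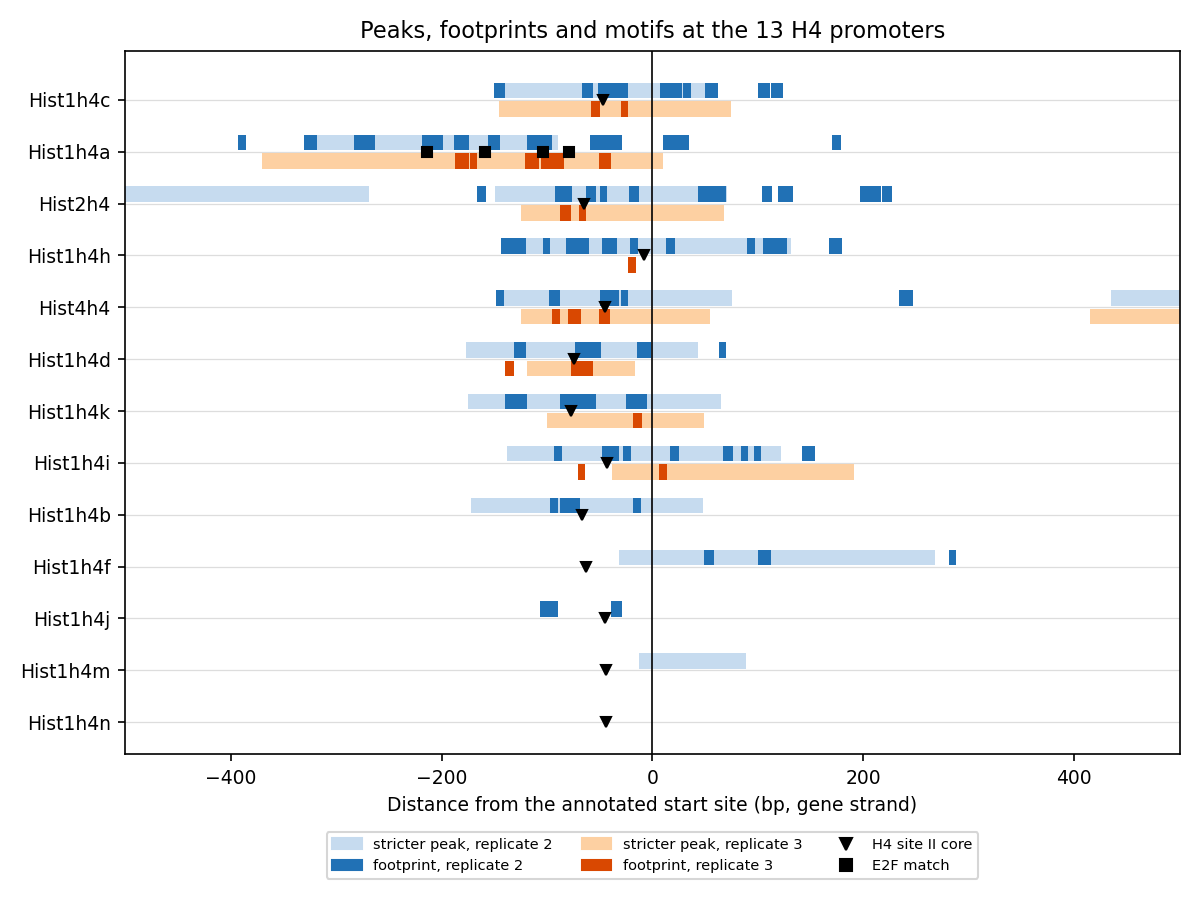
Promoters of the 13 H4 genes, sorted from top to bottom by permissive signal in replicate 2, with distance from the annotated start on the gene strand on the x axis (bp). Pale bars are stricter peaks and dark bars footprints, in blue for replicate 2 and orange for replicate 3; triangles mark the site II core and squares the E2F matches. In 7 genes a blue footprint touches the core marked by the triangle, and Hist1h4a at the second line has 4 squares and no triangle.

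Among the linker histones, Hist1h1c and Hist1h1e were open in both libraries. Hist1h1c had a signal of 5.34 in replicate 2 (percentile 67, 5 footprints) and 4.34 in replicate 3 (percentile 45.1, 1 footprint). Hist1h1e had 1.51 (percentile 19.3, 10 footprints) and 1.90 (percentile 7.18, 1 footprint), from strongest peaks that do not overlap. That of replicate 2 was centred 637.5 bp after the start and that of replicate 3 lay at chr13:23622378-23622611. In replicate 2 the window of Hist1h1e touched 3 stricter peaks, and only the strongest is described here. Hist1h1a had 2.01 in replicate 2 (percentile 26.6, 8 footprints) and no peak in either list of replicate 3. Hist1h1b had 0.604 in replicate 2 (percentile 3.45) from a peak 60 bp wide centred 394.5 bp after the start, with no footprint in its promoter. In replicate 2 footprints overlapped the TATA box of Hist1h1a, the TATA and CCAAT boxes of Hist1h1e and the CCAAT box of Hist1h1c. None overlapped an H1 box in either library.

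The H2A and H2B genes were open at low signal, both in promoters shared by a pair and outside such pairs. Of 18 genes each, 13 H2A and 14 H2B genes had a stricter peak in replicate 2, with median signals of 2.28 and 1.58, and 3 and 1 in replicate 3. In 12 pairs an H2A and an H2B gene lay head to head with starts 175 to 305 bp apart. Of these 12 pairs, 9 had a stricter peak in replicate 2, at 1.14 to 2.72 with a median of 2.07, and 1 in replicate 3. A 13th pair joined Hist1h2bh and Hist1h3f, whose annotated starts are 659 bp apart.

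The pair open in both libraries was Hist2h2ac and Hist2h2be on chromosome 3. They shared a peak of 2.28 in replicate 2 (percentile 30.5) and 2.21 in replicate 3 (percentile 11.1), with 10 and 12 footprints in their windows in replicate 2 and 4 each in replicate 3. The other members of these types that were open in both were H2A genes of the same cluster. Hist2h2aa1 had 2.47 (percentile 33.1, 5 footprints) and 3.48 (percentile 31.6, 3 footprints), and Hist2h2ab had 1.71 (percentile 22.3, 9 footprints) and 2.03 (percentile 8.84, 2 footprints).

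The pairs with a stricter peak in replicate 2 only fell into those that had a permissive peak in replicate 3 and those that did not. Hist1h2ag and Hist1h2bj shared 2.72 in replicate 2 (percentile 36.8, 8 footprints) and a permissive 2.21 in replicate 3. Hist1h2ac and Hist1h2bc shared 2.63 (percentile 35.3, 8 footprints) and 2.08, and Hist1h2an and Hist1h2bp shared 2.42 (percentile 32.4, 5 footprints) and 2.26. Hist1h2ah and Hist1h2bk shared 1.18 (percentile 14.2, 2 footprints) and 1.54. In replicate 3 these pairs had 1, 3, 2 and 0 footprints in turn. The pairs with no peak in replicate 3 were Hist1h2bf and Hist1h2ad at 2.07 (percentile 27.6, 5 footprints), Hist1h2bl and Hist1h2ai at 1.51 (percentile 19.3, 7 and 6 footprints), Hist1h2ae and Hist1h2bg at 1.20 (percentile 14.5, 3 footprints), and Hist1h2ak and Hist1h2bn at 1.14 (percentile 13.5, 3 footprints). The signal ranges of the pairs with and without a permissive peak in replicate 3 overlapped.

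Within the pairs printed above, a footprint overlapped the octamer of Hist1h2ac and Hist1h2bc in replicate 2. That was 1 of 10 distinct octamers before members, against 6.10% of octamers before all genes. In Hist1h2ag and Hist1h2bj, footprints overlapped 3 CCAAT boxes in replicate 2 and 1 of them in replicate 3. Over all members, 20 of 107 distinct CCAAT boxes (18.7%) and 11 of 33 TATA boxes (33.3%) were footprinted in replicate 2, against 11.6% and 2.88% before all genes. In replicate 3 the counts were 2 of 107 CCAAT boxes (1.87%), against 4.24% before all genes, and 1 of 33 TATA boxes (3.03%), against 0.677%. The members thus stood above all genes for CCAAT in replicate 2 and below them in replicate 3. No octamer before a member was footprinted in replicate 3, against 3.05% before all genes. All these shares count matches before closed promoters too. A stricter promoter peak was at 76.1% of members in replicate 2 and 19.4% in replicate 3, against 49.3% and 39.9% of all genes. The part of open promoters in these differences was not tested.

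Of the H2A and H2B genes outside the 12 pairs, Hist2h2aa2 had 3.45 in replicate 2 (percentile 46.5, 6 footprints) and a permissive 2.98 in replicate 3, with 1 footprint. Hist3h2a, on chromosome 11, had 2.81 (percentile 38, 9 footprints) and a permissive 2.03 with none. Hist2h2bb had 2.18 (percentile 29, 6 footprints) and a permissive 2.62 with 1. Hist1h2bh had 1.66 (percentile 21.4, 3 footprints), Hist1h2bb 1.03 (percentile 11.7, 8 footprints) and Hist3h2ba 0.828 (percentile 7.93, 5 footprints), all without a peak in replicate 3. Hist1h2bm and Hist1h2ab had only permissive peaks in replicate 2, of 0.925 and 0.470.

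H3 was the type without a stricter promoter peak in replicate 3. In replicate 2, 9 of 12 H3 genes had one, with a median signal of 1.34 and a median percentile of 16.7. Hist1h3e stood apart at 5.10 (percentile 64.8, 7 footprints), with a permissive 4.38 and 2 footprints in replicate 3. Hist1h3f had 2.60 (percentile 34.8, 6 footprints) and a permissive 2.48 with 1 footprint, from peaks centred 498.5 and 457 bp after its annotated start. The others had no peak in replicate 3. Hist1h3g had 1.88 (percentile 24.9, 1 footprint), Hist1h3h 1.45 (percentile 18.4, 1 footprint), Hist1h3a 1.34 (percentile 16.7, no footprint) and Hist1h3c 1.32 (percentile 16.5, 2 footprints). Hist1h3i had 1.13 (percentile 13.4, 8 footprints), Hist2h3c2 0.940 (percentile 9.995, 1 footprint) and Hist2h3b 0.791 (percentile 7.15, 4 footprints). The peak given to Hist2h3c2 was centred at -530.5 bp from its start, on the side of Hist2h2aa2. Hist1h3b had a permissive peak in replicate 2 only, of 0.560.

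Strong permissive peaks missing from the stricter list of replicate 3 were commoner at histone promoters than over all genes. In replicate 3, 14 of 27 permissive peaks at members' promoters (51.9%) were also in the stricter list, against 80.4% over all genes. Among those with a signal of 4 or more the counts were 5 of 7 for members, against 99.6% for all genes, and for signals from 2 to 4 they were 7 of 14, against 91.2%. The 2 strong exceptions were Hist1h4h, whose permissive peak of 5.56 was 90 bp wide with a lowest false discovery rate of 0.0208, and Hist1h3e, at 4.38, 55 bp wide with 0.0379. In replicate 2 the share was 57 of 64 (89.1%), against 85.1%. No test was made of these differences, because members share peaks and few peaks are strong.

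In 11 members no list held a promoter peak: Hist1h2ao, Hist1h2ap, Hist1h2bq, Hist1h2br, Hist1h2af, Hist1h1d, Hist1h3d, Hist2h3c1, Hist1h1t, Hist1h2aa and Hist1h2ba. The last 3 are the germline genes, and they had no footprint in either library. Hist1h2aa and Hist1h2ba form a head-to-head pair at the far end of the second chromosome 13 group. Their promoters held few words repeated elsewhere in the genome: 3.73% for Hist1h2aa, 16.5% for Hist1h2ba and 0% for Hist1h1t.

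Sequence copies moved with the absence of peaks in part of the family. A read that fits several places in the genome cannot be assigned to 1 of them, and the handling of such reads by the authors is not stated. The share of a promoter's 36-base words that occur again on the 21 chromosomes was therefore computed, with 36 chosen as a short read length because the read length is not stated either. The median member had 35.7% repeated words. In 8 members the share was 90% or more: Hist1h2ao, Hist1h2ap, Hist1h2bq and Hist1h2br (100%), Hist1h4n (96.7%), Hist2h3c1 and Hist2h3c2 (96.3%) and Hist1h4m (95.8%). Of these 8, 2 had a stricter peak in replicate 2 and 0 in replicate 3. Of the other 59, 49 had a stricter peak in replicate 2 and 13 in replicate 3. Below 90%, in replicate 2, the counts showed no such drop: 7 of 10 members under 10% had a peak in replicate 2, 32 of 39 from 10 to 50%, and 10 of 10 from 50 to 90%. In replicate 3 the counts were 2 of 10, 10 of 39 and 1 of 10. Words were read only around the outermost annotated start of each gene. The class under 10% includes Hist1h3f, Hist1h1d and Hist1h2be, whose start codons lie 433, 1828 and 35168 bp after that start. It also includes the germline genes Hist1h1t and Hist1h2aa. By type, the median share of repeated words was 0.621% for H1, 21.7% for H4, 36.2% for H3, 47.9% for H2B and 49.3% for H2A. It was 18.9% for members open in both libraries and 39.3% for those with a stricter peak in replicate 2 only. For members with no stricter peak it was 36.3%. The part of the copies in the missing peaks and in the differences between types was not tested. Leaving out the 8 members at 90% or more, 83.1% of members had a stricter peak in replicate 2 and 22% in replicate 3.

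**Figure D4:**
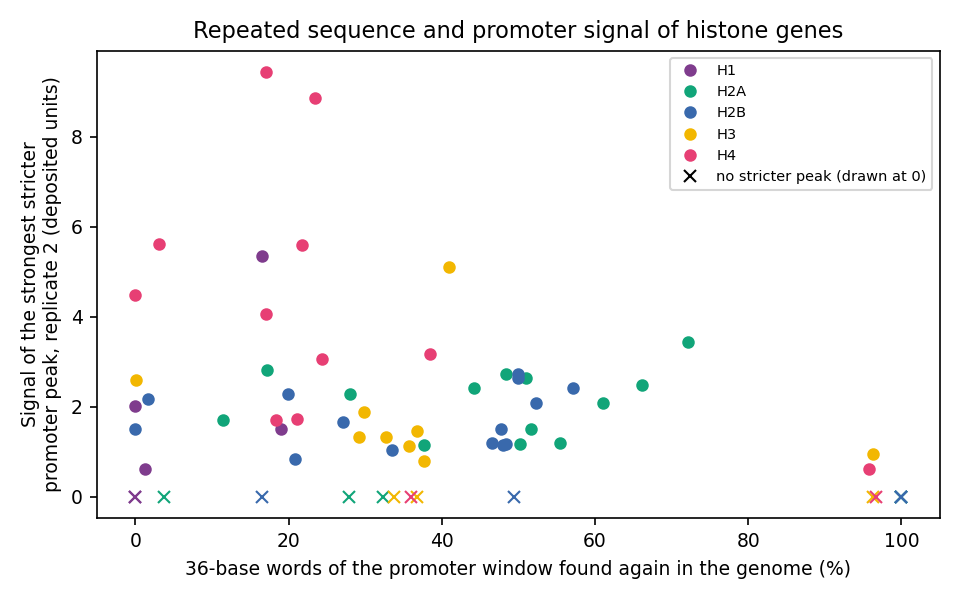
Signal of the strongest stricter promoter peak in replicate 2 (y axis, deposited units) against the share of 36-base words of the promoter window found again in the genome (x axis, %), 1 point per member, coloured by histone type; crosses at 0 have no stricter peak. Of the 8 members at 90% or more, 2 have a peak, both below 1, and all 10 members from 50 to 90% have one.

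The annotated start also decided what was counted at a few genes. In 3 members the start codon lay over 400 bp after the annotated start: Hist1h3f (433 bp), Hist1h1d (1828 bp) and Hist1h2be (35168 bp). The annotated start of Hist1h2be lies beside Hist1h1e, and in replicate 2 both genes were given the same peak (chr13:23621581-23622260, signal 1.51, percentile 19.3), between their starts. Within its bounds replicate 3 had a stricter peak of 1.85 (chr13:23621660-23621800), which fell outside both promoter windows and was not counted for either gene. Hist1h2be had 5 footprints in replicate 2 and a permissive peak of 1.04 in replicate 3. At its start codon, a separate peak stood at chr13:23585801-23586060 with a signal of 2.10 in replicate 2, and none in replicate 3. Hist1h1d, with no peak at its annotated start, had a peak of 0.828 by its start codon (chr13:23554938-23555098) in replicate 2. With windows centred on start codons, a setting chosen after seeing the data, 51 members had a stricter peak in replicate 2 and 13 in replicate 3, the same numbers as with annotated starts. The share of all genes fell to 33.9% and 26.5% in that setting.

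Footprints were called in most members' promoters in replicate 2. There, 52 of 67 members (77.6%) had a footprint in the window, against 51.3% of all genes, and in replicate 3, 24 of 67 (35.8%), against 37.0%. Among genes with a stricter peak, members had a median of 5 footprints in replicate 2 and 2 in replicate 3, against 6 and 2 over all genes. In replicate 3, 11 members had a footprint without a stricter peak, and all 11 had a permissive one. In replicate 2 this held for 4 members: Hist1h2bm (4 footprints), Hist1h4j (2), Hist1h2ab (1) and Hist1h3b (1). Hist2h2be had the most, with 12. By type, H4 had the largest share of genes with a footprint in replicate 3, 8 of 13 (61.5%), and H3 the smallest, 2 of 12 (16.7%).

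The 67 genes lay in 5 places. On chromosome 13 there were 23 members within 327 kb (starts from 21716143 to 22043214) and, 1.49 Mb further on, 31 members within 403 kb (23531050 to 23934462). Chromosome 3 held 10 members within 49.9 kb, chromosome 11 held 2 and chromosome 6 held Hist4h4. In replicate 3, stricter promoter peaks were found at 2 of 23, 5 of 31 and 5 of 10 members of the 3 larger groups. In replicate 2 the counts were 16 of 23, 23 of 31 and 9 of 10.

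**Figure D5:**
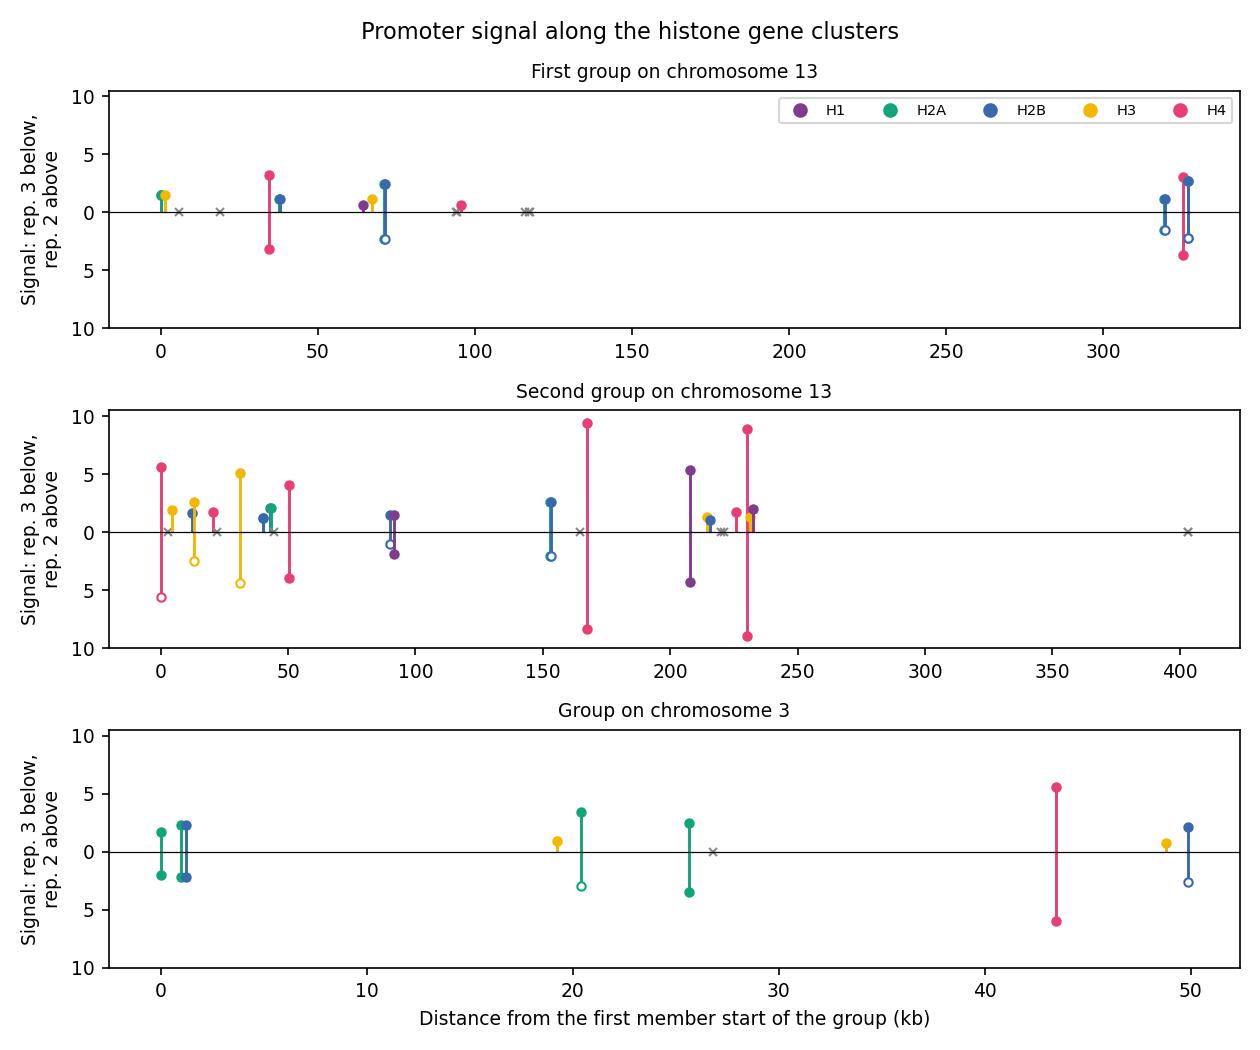
Promoter signal along the 3 larger groups, by distance from the first member start of each group (x axis, kb). Signal in replicate 2 (stricter list) points up and in replicate 3 points down, where filled points are stricter and open points permissive only; colours give the histone type and crosses mark members with no stricter peak in replicate 2. The tallest lines in both directions in the second panel are the H4 genes Hist1h4c (9.44 and 8.31) and Hist1h4a (8.86 and 8.94).

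Open sites inside the clusters but outside any protein-coding promoter window numbered 30 in replicate 2 and 14 in replicate 3, in the stricter lists. Of these, 13 in replicate 2 and 2 in replicate 3 lay within 5 kb of a member's start. Because windows were set on annotated starts, the replicate 2 sites include the peaks by the start codons of Hist1h2be and Hist1h1d named above. The first group on chromosome 13 has a stretch without histone genes between Hist1h2br and Hist1h2ah, and most of the distant sites were there. The strongest was at chr13:21940301-21940540, with 6.12 in replicate 2, and the overlapping peak in replicate 3 had 4.79. Others were at chr13:21974261-21974440, with 4.98 and 5.96, and at chr13:22028761-22028960, with 5.01 and 5.74, which lies 6708 bp from the start of Hist1h2ah. A site at chr13:23739561-23740100, inside the Hist1h1c gene and 1022 bp from its start, had 4.66 in replicate 2, and an overlapping peak had 3.93 in replicate 3. In replicate 2 alone, sites lay 690 bp from the start of Hist1h4h (3.49), 884 bp from that of Hist1h4c (1.13) and 921 bp from that of Hist2h4 (1.07). These sites were named after their values were seen.

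Genes that regulate or process histone transcripts had stronger promoter peaks than the histone genes. Of 24 listed genes 23 were measured, all 23 had a stricter promoter peak in replicate 2 and 22 in both libraries. Over all protein-coding genes the shares were 49.3% in replicate 2 and 39.8% in both. Their median signal was 6.35 in replicate 2 and 6.19 in replicate 3, against 2.01 and 3.66 for the histone genes. The medians over all genes with a stricter promoter peak were 3.76 and 4.65. The highest mean percentiles were those of Ccne1, the cyclin E1 that activates CDK2 at the start of S phase (13.4 and 13.8), and Lsm11, a subunit of the U7 particle that cuts histone transcripts (11.4 and 10.6). Gon4l was open in replicate 2 only, at 0.560. Chosen after their values were seen, Npat had 11.7 and 10.2, Slbp 4.10 and 5.74, and Hinfp 9.67 and 6.55.

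Variant histone genes, many of which are transcribed outside S phase as well, were split between those open in both libraries and those without a peak. Of 16 measured genes, 8 had a stricter promoter peak in both libraries and 7 in neither, with medians of 6.22 and 6.50 among those open. The share of all genes open in both was 39.8%, so the 8 of 16 are not far from it. H3f3b, for the H3.3 variant, had 10.1 and 7.95, and H2afz, for H2A.Z, had 9.62 and 6.87. The 7 without a peak were H2afy2, H1fx, H1foo, H1fnt, Hils1, H2afb1 and H2bfm, of which H1foo is known from oocytes and H1fnt and Hils1 from the male germline. All 18 histone chaperone genes had a stricter peak in replicate 2 and 17 in both, against 49.3% and 39.8% of all genes. They were led by Hjurp, the CENP-A chaperone (17.4 and 12.6), and Npm1 (13.3 and 8.94). Each list was described by its counts and medians, and no test of a difference between lists was made.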

How the data were processed

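DNase-seq was available for 2 libraries of 1 group. Per the labels, coordinates are on mm10. The notes deposited beside the files say that each list comes from the alignments of a single library, without pooling. Not given in the sources used here are the aligner, the callers and the read length. Each of the authors' deposited peaks has a signal of unstated scaling. Signal values below 2 fell on multiples of 1 step per library, with a tolerance of 0.05 step (25650 of 25650 in replicate 2 and 4539 of 4539 in replicate 3), and tags per 1e+06 would give 1.34e+08 and 2.21e+07 tags. The authors' deposited q-values are false discovery rates per stretch of positions, up to 0.05. Stricter peaks held a position at or under 0.001, and permissive peaks at or under 0.05. Such a position in a promoter window did not always come with a stricter peak. In replicate 3 the lowest rate was 0.00039 at Hist1h2an and Hist1h2bp, 0.00051 at Hist1h2ac and Hist1h2bc, and 0.00067 at Hist1h2ag and Hist1h2bj. These had permissive peaks only, as did Hist1h2bm in replicate 2, at 0.000806. What else separated the lists is not stated. The deposited footprint lists carry 1 constant in another column, so only their intervals were used.

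Peaks and footprints were assigned to a promoter on an overlap of 1 bp or more, over all annotated starts of a gene. Words, motifs and stem-loops were read from GRCm38, and the stem-loop pattern was widened to further loop letters after the data were seen. The word count was tested on simulated data. Full values are given by a rule: for each histone type, the 3 members of highest and the 2 of lowest mean percentile among those open in both libraries, every member open in 1 library, the germline members, and, of each companion list, the 2 highest and those without a peak. The members and lists were chosen with earlier results of these data known. Alternatives changed the peak list, number of peaks, window, start, overlap, signal summary, motif window, word length and library. The scripts ran in Python 3.11.15 with numpy 2.4.6, pandas 2.3.3 and matplotlib 3.10.9. Ars2 and H3f3c were not matched by symbol.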

Additional observations from a re-analysis of the deposited data

How the results depend on the processing

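The count of members open in both libraries was 13 and that of regions 12. With permissive lists they were 28 and 23, and replicate 3 alone then had 28 in place of 13. Leaving out each library in turn, the counts ranged from 13 to 51 members and from 12 to 41 regions, the higher value being replicate 2 alone. The members' median percentile, averaged over both libraries, was 30.6 ± 5.59 (SD, n = 2), and 24.1 with permissive lists. Counting only footprints inside stricter peaks left 12 members in replicate 3 in place of 24. In the 500 bases before the start, CACGTG was in 1 member in place of 0 and TTTCCCGC in 2 in place of 1. The other 48 values (56 members in replicate 2 with permissive lists among them), also under equal numbers of peaks, windows of 250 and 1000 bp, the outermost start, peak midpoints, start codons (added after seeing the data), summed signals, motif windows of 150 bases or words of 75 bases, stayed within 1.5 times the reported count or 1 SD. No paired analysis was possible because there is 1 group. The part of depth in the peaks missing from replicate 3 was not tested.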
